A study of Homo sapiens with 36 samples.

Results

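Small interfering RNA (siRNA) against CHD5 was compared with a control siRNA (siNC) through the places where CTCF was found on chromatin in HEK293T cells. Members were all CTCF peaks that the authors called in the siCHD5 and siNC conditions on chromosomes 1 to 22 and X, with lines sharing chromosome, start and end counted once. There were 31451 peaks in the siCHD5 list and 36270 in the siNC list, 67721 of the 179333 peaks in the 6 lists of the series. A siCHD5 peak was called kept where at least 1 bp of it lay in a siNC peak and added otherwise, and a siNC peak was called kept or missing by the same overlap with the siCHD5 list.

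HEK293T is a human embryonic kidney line that carries the SV40 large T antigen. The siCHD5 cells were transfected with siRNA to CHD5, the siNC cells with the control siRNA in the same way, and no other allele, drug or time point separates these groups in the labels. For each condition, chromatin was immunoprecipitated with a CTCF antibody in 3 replicates, beside 3 inputs, and each peak list pools its 3 replicates. The level of CHD5 after transfection was not analysed here. The other conditions were siRNAs to CHD3, CHD4, MBD2 and MBD3, used below only as 4 further lists.

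CTCF is a zinc-finger protein that binds a long DNA motif, blocks enhancers at insulators and stops cohesin at the anchors of chromatin loops. CHD5 is an ATP-dependent chromatin remodeller of the NuRD complex, which slides nucleosomes and removes acetyl groups from histones. CHD3 and CHD4 are its paralogs in that complex, and CHD5 is known mainly from neurons and the testis, where it acts in differentiation and in the exchange of histones during sperm formation.

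Because each condition was 1 pooled list, there was no spread between replicates and no test between conditions. Shares are given with 95% exact Clopper-Pearson intervals, which cover counting error over peaks and not differences between cultures. Pileup is the number of fragments stacked at a summit and local background the number expected there, both solved from the authors' fold enrichment and p. The median pileup was 46 in siCHD5 peaks and 59 in siNC peaks, and the smallest local background was 1.95 and 2.96. The median fold was 6.54 in siCHD5 peaks and 5.22 in siNC peaks, and the median −log10 q was 22.0 and 22.3. The siCHD5 list thus had lower pileups and backgrounds, higher folds and a like q, and the part of this in the shares below was not tested. Peaks covered 9.75 Mb in the siCHD5 list and 11.6 Mb in the siNC list, with median widths of 300 and 304 bp.

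In the siCHD5 list 2960 peaks were added, 9.41% of all its peaks (interval 9.09 to 9.74). In the siNC list 7805 peaks were missing, 21.5% (interval 21.1 to 21.9). These 9.41% and 21.5% are the background against which shares of added and missing peaks in any class are read. When each list was cut to its 31451 peaks of smallest p, 4119 siCHD5 peaks (13.1%) were added and 4145 siNC peaks (13.2%) were missing. Kept peaks met almost singly, so equal lengths fix these counts to be nearly equal, and nothing is read from their likeness. Among peaks with a −log10 q of at least 10, searched for in the whole other list, 900 siCHD5 peaks (3.54%) were added and 2674 siNC peaks (9.38%) were missing.

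Most sites were called in both conditions, at nearly the same base. In 28374 pairs 1 siCHD5 peak met 1 siNC peak, with median widths of 307 and 318 bp. The siCHD5 peak was the narrower in 54.7% of pairs, and the median difference, siCHD5 minus siNC, was -8 bp. Summits lay a median of 8 bp apart, within 20 bp in 87.5% of pairs and over 100 bp apart in 316 pairs. Splitting was rare, as 47 siNC peaks met 2 or more siCHD5 peaks and 22 siCHD5 peaks met 2 or more siNC peaks.

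Added and missing peaks were narrower and weaker than kept ones. Added peaks had a median width of 230 bp, a median fold of 4.74 and a median pileup of 19, against 308 bp, 6.76 and 50 in kept siCHD5 peaks. Missing peaks had a median width of 241 bp, a median fold of 4.18 and a median pileup of 25, against 318 bp, 5.52 and 72 in kept siNC peaks. The nearest siNC peak to an added peak was a median of 19123 bp away, and the nearest siCHD5 peak to a missing peak 21600 bp away. These distances were like the spacing within a list, where the median gap to the nearest peak was 20784 bp in siCHD5 and 17619.5 bp in siNC. Within 1 kb of the other list lay 138 added peaks (4.66%) and 365 missing peaks (4.68%), near the 4.03% of siCHD5 and 5.92% of siNC peaks that had a peak of their own list within 1 kb.

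Over all pileups, width separated the lists more sharply at its lower end than at its upper end. Among peaks of at most 200 bp, 37.8% of siCHD5 peaks were added and 60.4% of siNC peaks were missing. Among peaks over 350 and up to 400 bp these shares were 1.49% and 6.11%. Over 500 and up to 750 bp both shares were higher than over 350 and up to 400 bp, the missing share by far more. Of siCHD5 peaks over 500 and up to 750 bp, 4.39% were added (24 of 547), and none of 39 over 1 kb was (interval 0 to 9.03). Of siNC peaks 30.5% were missing over 500 and up to 750 bp (288 of 943), 25.9% over 750 bp and up to 1 kb and 21.3% over 1 kb.

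At like pileup, wide siNC peaks were missing more often than mid-sized ones in all but the highest pileup class. In the 20% of siNC peaks with the lowest pileup, 79.8% of peaks over 500 bp were missing, against 70.8% of those over 250 and up to 500 bp. The next 20% gave 43.3% and 22.0%, and the middle 20% gave 15.4% and 5.05%. The fourth 20% gave 3.47% and 0.872%, and the 20% with the highest pileup gave 0.279% (1 of 358) and 0.256%. Peaks with 2 summits were missing in 37.2% of cases and those with 3 in 34.5%, against 21.1% of peaks with 1 summit. Peaks with 4 or more summits were missing in 9.68% of cases (6 of 62, interval 3.63 to 19.9). Over all pileups, the missing share of peaks over 500 bp exceeded that of narrower ones by 7.41 percentage points, by 16.2 and 19.9 points when both lists were held to a −log10 q of 5 and 10, by 20.0 points with summits within 100 bp as the rule, and by 27.6 points when 50% of both peaks had to overlap.

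Wide siNC peaks, missing or kept, were mostly present in the CHD3 and CHD4 knockdown lists. All 5 knockdown lists were set against the same siNC list, so their shares are given side by side and are not independent. Of the 1319 siNC peaks over 500 bp, 941 (71.3%) met a siCHD5 peak, and 1253 (95%) met a siCHD3 peak, 92.3% a siCHD4 peak, 74.3% a siMBD2 peak and 84.1% a siMBD3 peak. Narrower siNC peaks met a peak in 78.8% of cases in siCHD5, 63.4% in siCHD3, 57.2% in siCHD4, 64.7% in siMBD2 and 60.6% in siMBD3. In siCHD5 the wide peaks were thus the less often called of the pair, and in each of the other 4 lists the more often called. That difference between lists was not tested.

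Of the 378 wide siNC peaks missing from siCHD5, 359 (95%) were called in siCHD3, 93.1% in siCHD4, 64.8% in siMBD3 and 35.7% in siMBD2. Lists also differed in how many wide peaks they held. Peaks over 500 bp made up 2.16% of the siCHD5 list (679) and 3.64% of the siNC list (1319). The share was 11.1% in the siCHD3 list, 6.87% in siCHD4, 2.14% in siMBD2 and 2.59% in siMBD3. The widest missing peak was chr1:67876994-67878616, 1623 bp with 4 summits at fold 4.48, called in all 4 other knockdown lists and 17.1 kb from the nearest siCHD5 peak. Next came chr20:34636512-34638033 (1522 bp, called in siCHD3 and siCHD4 alone of the 4) and chr1:214818982-214820467 (1486 bp, called in all but siMBD2). The widest added peak was chrX:114994735-114995650, 916 bp with 3 summits at fold 3.29, and it lay inside the DXZ4 window described below.

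**Figure D1:**
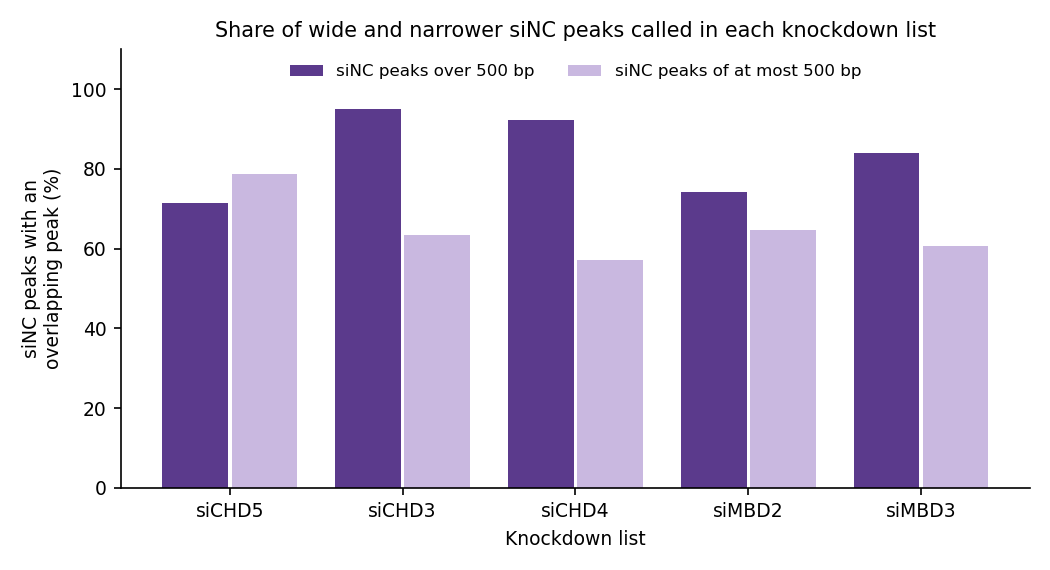
Percent of siNC peaks that met a peak of each knockdown list, for siNC peaks over 500 bp (dark bars, 1319 peaks) and of at most 500 bp (light bars, 34951 peaks). The dark bar is below the light bar for siCHD5 (71.3% and 78.8%) and above it for siCHD3, siCHD4, siMBD2 and siMBD3.

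Calls in the 4 other lists also separated added and missing peaks from kept ones. Over all siCHD5 peaks, 65.2% met a siCHD3 peak, 59.8% a siCHD4 peak, 71.9% a siMBD2 peak and 66.2% a siMBD3 peak. For added peaks these shares were 21.2%, 14.3%, 21.3% and 19.4%. Over all siNC peaks the shares were 64.6% in siCHD3, 58.5% in siCHD4, 65.1% in siMBD2 and 61.5% in siMBD3. For missing peaks they were 45.8%, 36.6%, 20.9% and 26.6%. In none of the 4 other lists were 1581 added peaks (53.4%), against 11.1% of all siCHD5 peaks, and 2882 missing peaks (36.9%), against 13.2% of all siNC peaks.

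All 4 other knockdown lists called 49 added peaks (1.66%), against 37.8% of all siCHD5 peaks, and 442 missing peaks (5.66%), against 33.8% of all siNC peaks. The 49 added peaks had a median width of 255 bp and a median fold of 5.47. The 442 missing peaks, called in siNC and in every knockdown list but siCHD5, had a median width of 343 bp and a median fold of 5.13, and 105 of them (23.8%) were over 500 bp.

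The strongest added and missing peaks were ranked by fold among those with no partner within 1 kb. The leading added peak with no siNC peak within 1 kb was chr18:20611444-20611841, with fold 16.5 and a pileup of 52 over a background of 2.21. It lay 38.1 kb from the nearest siNC peak and was called in all 4 other knockdown lists, as was the second, chr2:189889970-189890282 (fold 14.1, pileup 42). The third, chr1:2686948-2687202 (fold 12.5), lay 1.54 kb from a siNC peak and was called in siCHD3 and siCHD4 alone, and the fourth, chr2:115923164-115923480 (fold 12.2), in siCHD3 alone, 436 kb from any siNC peak. Among the 10 strongest, chr8:12500055-12500263 and chr16:48560435-48560686 were called in no other list, both at fold 10.8 with a pileup of 31. Both had a background of 1.95, the smallest in the siCHD5 list, as did ranks 3, 4 and 8, with pileups of 36, 35 and 31. These pileups were below the siCHD5 median of 46, so their high folds rest on the lowest background.

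The leading missing peak was chr1:8926345-8926571, with fold 14.9 and a pileup of 83 over a background of 4.62 in siNC. The nearest siCHD5 peak was 3.47 kb away. Next were chr11:118964726-118965023 (fold 12.4), chr11:67450225-67450557 (fold 12.2), chr13:107188833-107189130 (fold 12.1) and chr8:24774633-24775535 (fold 12.1). All 5 were called in each of the 4 other knockdown lists, so siCHD5 was the 1 list of 6 without them. The sixth, chr3:122018726-122019027 (fold 11.9), was called in siNC alone. Ranks 7 to 10 had folds of 11.4 to 11.6 and were called in 1, 2, 1 and 3 of the 4 other lists. Ranks 2, 6 and 10 had a background of 2.96, the smallest in the siNC list. Their pileups were 48, 46 and 44, below the siNC median of 59. Of all missing peaks, 5.66% were called in all 4.

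The 5 siNC peaks of highest fold were all kept. The first, chr8:62115006-62115322, had fold 21.8 and a pileup of 147 in siCHD5, and fold 26.1 and a pileup of 500 in siNC. The second, chr2:139045464-139046435, was a peak of 322 bp in siCHD5 and of 972 bp with 2 summits in siNC. Its summits in the lists lay 3 bp apart. Ranks 3 to 5 had folds of 22.9, 22.4 and 21.6 in siNC and 10.8, 9.19 and 8.31 in siCHD5. Their pileups were 172, 109 and 101 in siNC and 56, 27 and 28 in siCHD5. The peaks were picked by siNC fold, so nothing is read from the direction of these differences.

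The overlap rule moved the counts. With 50% of both peaks required to overlap, 3485 siCHD5 peaks were added and 8304 siNC peaks were missing, and with summits within 100 bp as the rule, 3332 and 8151. The kept siNC peaks with the fewest shared bases were chrX:114962189-114962385 (52 bp), chr17:80615098-80615444 (65 bp) and chr5:69781692-69781883 (68 bp). Just outside the rule, the missing peak closest to a siCHD5 peak was chr17:20688340-20689015, 26 bp away, followed by peaks 90 bp and 113 bp away.

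Over all pileups, the added share varied little with the distance to the nearest peak of the same list, while the missing share was highest among close neighbours. Of siCHD5 peaks with another siCHD5 peak within 0.5 kb, 11.1% were added (65 of 586, interval 8.67 to 13.9), with 8.61% at 2 to 5 kb and 339 of 3086 past 100 kb. Of siNC peaks with another siNC peak within 0.5 kb, 43.4% were missing (482 of 1111, interval 40.4 to 46.4). The missing share was 31.2% at 0.5 to 1 kb and 24.0% at 1 to 2 kb, and between 19.7% and 20.5% from 2 to 100 kb. Close siNC peaks also had lower pileup, a median of 44 within 0.5 kb and 63 at 2 to 5 kb. At like pileup, the missing share with a neighbour inside 500 bp and without one was 88.8% and 71.0% in the lowest 20% of siNC peaks by pileup, 48.5% and 26.8% in the next 20%, and 14.6% and 6.29% in the middle 20%. It was 6.67% and 1.21% in the fourth 20%, and 3.49% and 0.270% in the highest. For siCHD5 peaks the added shares at like pileup went both ways. With a neighbour inside 500 bp and without one they were 27.3% and 35.1% in the lowest 20%, and 14.1% and 9.36% in the next. The middle 20% gave 4.49% and 1.87%, the fourth 0 of 84 and 0.322%, and the highest 6.35% (12 of 189) and 0.295%.

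**Figure D2:**
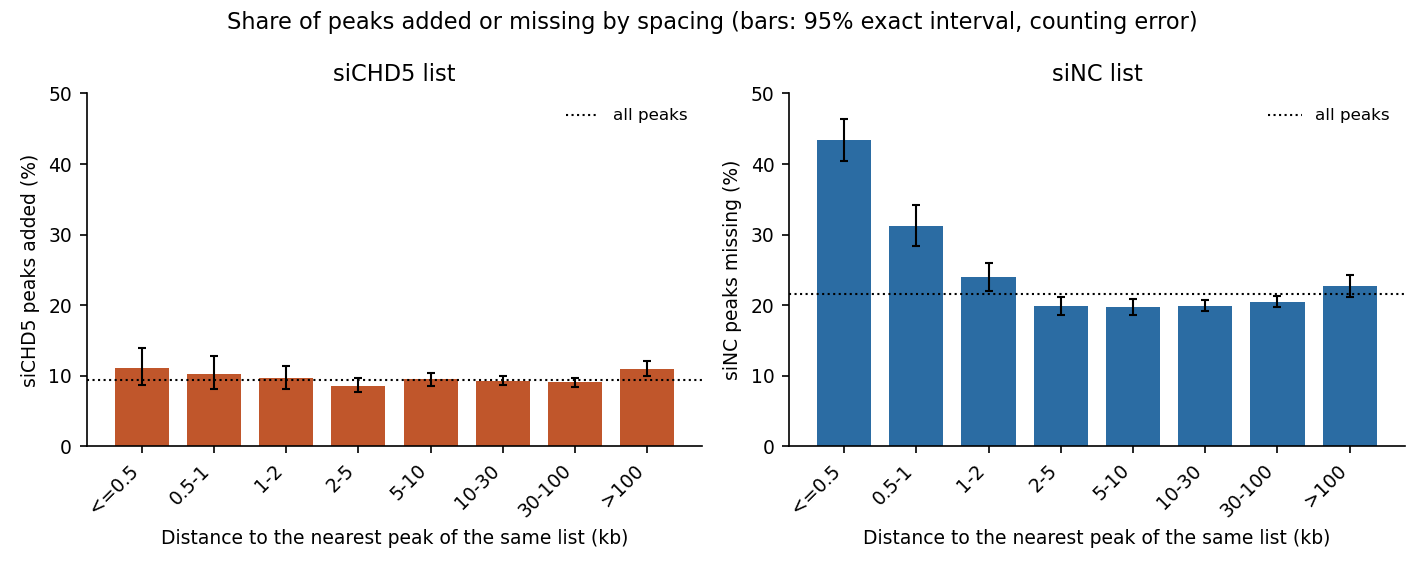
Share of siCHD5 peaks added (left) and of siNC peaks missing (right) in percent, by distance in kb to the nearest peak of the same list; error bars are 95% exact intervals for counting error and the dotted line is the share over all peaks. The added share lies between 8.61% and 11.1% in every class, while the missing share is 43.4% within 0.5 kb and 31.2% at 0.5 to 1 kb.

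Neighbours were often missing together. Among the 574 pairs of adjacent siNC peaks at most 500 bp apart, both were missing in 161 (28.0%), 1 was missing in 179 and both were kept in 234. At 5 to 30 kb both were missing in 5.08% of 11004 pairs. Where 1 of a close pair was missing, it was the one of lower fold in 137 of 179 pairs (76.5%), near the 73.6% of such pairs at 5 to 30 kb. The missing share of siNC peaks with a neighbour within 0.5 kb exceeded that of the others by 22.6 percentage points. The excess was 6.88 points when any siCHD5 peak within 1 kb counted as a partner, 14.3 when both lists were held to a −log10 q of 10, 6.27 when only the siNC list was, and 10.7 with lists of equal length.

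The density of peaks over a wider window made little difference. Added shares were 10.2% in the 20% of siCHD5 peaks with the fewest others within 500 kb and 9.59% in the 20% with the most. Missing shares were 20.3% in the 20% of siNC peaks with the fewest others within 500 kb and 23.4% in the 20% with the most. That order of the missing shares turned round, to 0.96 percentage points more in the sparsest 20%, when both lists were held to a −log10 q of at least 10.

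Along the chromosomes, 309 runs of 2 or more neighbouring siCHD5 peaks were all added and held 709 of the added peaks (24.0%). In the siNC list 1429 runs were all missing and held 3408 of the missing peaks (43.7%). Runs also form where calls are scattered, and more so where a larger share of peaks is called. The share in runs to be met that way was not computed. After an added peak the next siCHD5 peak was added in 13.5% of cases, against 9.41% overall. After a missing peak the next siNC peak was missing in 25.4%, against 21.5% overall. Runs of 5 or more numbered 8 for added and 42 for missing peaks.

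The longest added runs lay close together on chromosome 8, where the lists called different weak peaks in 1 stretch. One held 9 siCHD5 peaks from 86742635 to 86791694 and another 8 from 86797932 to 86811796, with folds of 1.95 to 2.95 and 1.97 to 2.68. The second longest missing run, 9 siNC peaks from 86742287 to 86796188 with folds of 1.54 to 3.77, covered the first of them. Between 86 and 87 Mb, 28 of 44 siCHD5 peaks were added (63.6%) and 19 of 35 siNC peaks were missing (54.3%), with median folds of 2.50 and 2.42. Another added run, 7 siCHD5 peaks on chromosome 4 from 9334890 to 9359120, had summits a median of 4379 bp apart and folds of 3.12 to 6.06. Of its 7 peaks, 4 were in no other knockdown list.

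The longest missing run held 14 siNC peaks on chromosome 19 from 36727269 to 38188355, a stretch of 1461 kb in which the siCHD5 list had 1 peak, itself added. Folds in the run were 2.86 to 6.03 and pileups 11 to 43, with summits a median of 20219 bp apart. In the other lists, siCHD3 called 3 of the 14, siCHD4 5, siMBD2 2 and siMBD3 4, and 6 were in none. A further run of 8 lay on the same chromosome from 58557075 to 59067471, with folds of 3.19 to 7.32 over 510 kb. Both lie on the long arm of chromosome 19, known for its clusters of zinc-finger genes, whose positions were not checked here.

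**Figure D3:**
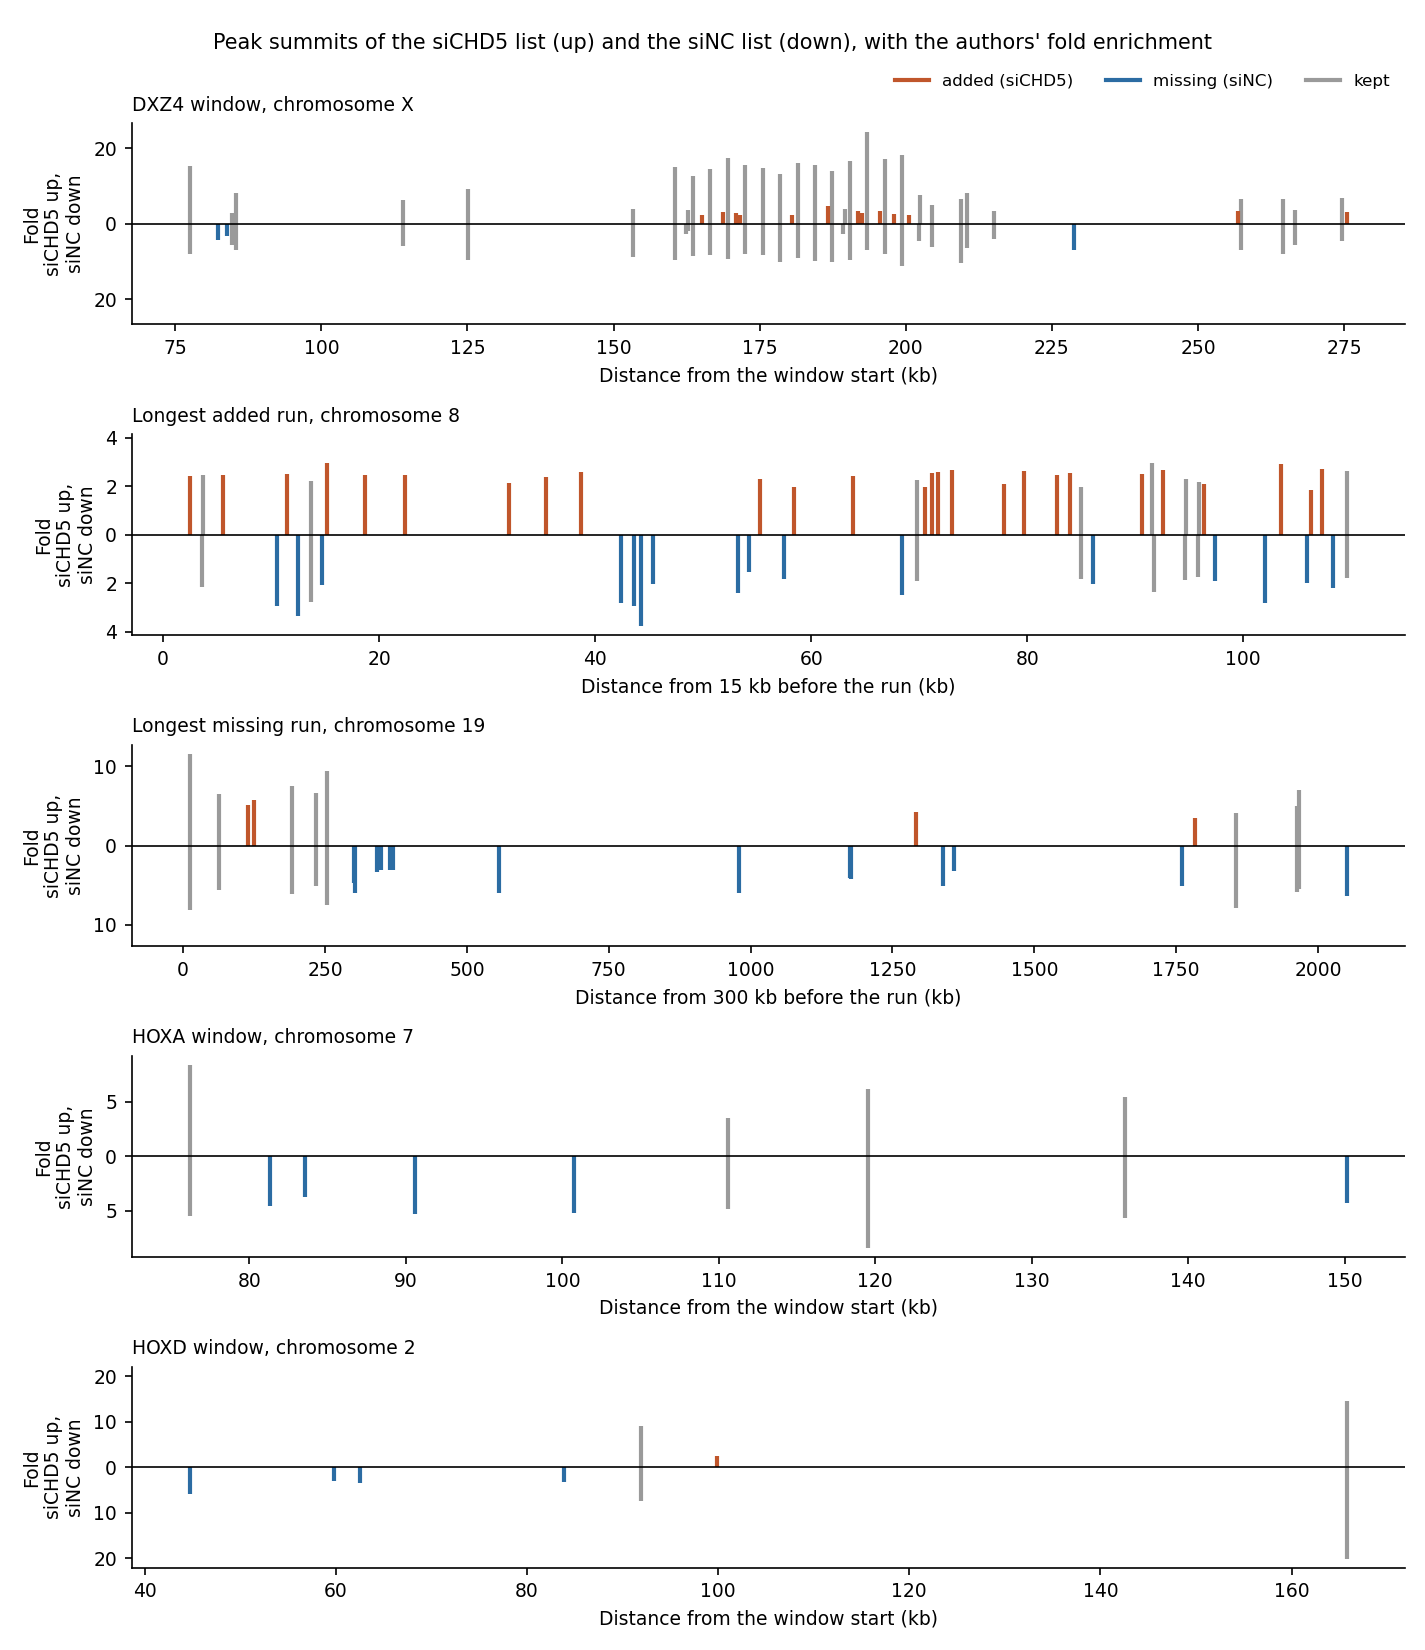
Peak summits in 5 regions by distance in kb, with the siCHD5 list above the line and the siNC list below it and the authors' fold enrichment as the height; orange marks added, blue missing and grey kept peaks. The DXZ4 panel shows 13 low added peaks among tall kept ones, the chromosome 8 panel 26 added and 16 missing peaks of low fold, the chromosome 19 panel a stretch where 14 neighbouring siNC peaks are missing, and the HOXA and HOXD panels 5 and 4 missing peaks.

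DXZ4 is a large tandem repeat on the X chromosome that binds CTCF on the inactive copy and anchors its folding. Its window held 44 siCHD5 peaks, 13 of them added (29.5%, interval 16.8 to 45.2), and 35 siNC peaks, 3 of them missing (8.57%, interval 1.80 to 23.1). In siCHD5, 3 of 43 spacings between neighbouring summits were 2900 to 3100 bp, and 11 spacings to the next but one summit were, with a median of 2982 bp. A peak between split these 11 into a longer part of 2087 bp and a shorter one of 893 bp (medians). In siNC, 12 of 34 spacings between neighbouring summits were 2900 to 3100 bp, with a median of 2985.5 bp.

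The added DXZ4 peaks were weak, with a median fold of 2.94 and a median pileup of 28, against 9.30 and 190 for the 31 kept siCHD5 peaks. Of the 13, siCHD4 called 12, siCHD3 10, siMBD2 9 and siMBD3 3, so none was in siCHD5 alone. The 3 missing peaks of this window, at chrX:114881887-114882348, chrX:114883768-114884012 and chrX:115028695-115029008, lay outside the stretch from 114965119 to 115000865 that held 11 of the 13 added ones. FIRRE, a noncoding RNA locus that also binds CTCF on the inactive X, had no added peak among 24 in siCHD5 and 3 missing among 27 in siNC.

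In the 4 HOX clusters, whose genes pattern the body axis and whose domains CTCF divides, 3 of 18 siCHD5 peaks were added (16.7%, interval 3.58 to 41.4) and 14 of 29 siNC peaks were missing (48.3%, interval 29.4 to 67.5). All windows for named loci were placed from textbook positions and were not checked against an annotation of hg19. HOXA held 4 siCHD5 peaks, all kept, and 9 siNC peaks, of which 5 were missing. Missing HOXA pileups in siNC were 20, 19, 20, 56 and 16, against 73, 60, 85 and 137 at the 4 kept peaks. Over all siNC peaks, 84.1% were missing in the lowest 10% by pileup and 0.496% in the highest 10%. By pileup the HOXA groups did not overlap, and nothing particular to HOXA is read from that. By fold they did, as missing peaks at 5.30 and 5.21 stood above the kept peak at 4.79. The missing HOXA peak of highest pileup, chr7:27200639-27200904 (fold 5.21), was called in all 4 other knockdown lists.

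HOXD held 3 siCHD5 peaks with 1 added and 6 siNC peaks with 4 missing. Missing HOXD pileups were 22, 27, 40 and 12 in siNC, against 156 and 348 at the kept peaks. The HOX peak of highest fold in each list was here, chr2:177065673-177066111, kept with fold 14.6 and a pileup of 95 in siCHD5, and fold 20.1 and a pileup of 348 in siNC. HOXB had no added peak among 7 in siCHD5 and 4 missing among 11 in siNC, with missing pileups of 28, 43, 37 and 44 against 30, 37, 42, 109, 45, 37 and 141 at kept peaks. The HOXB groups overlapped, with medians of 40 and 42. HOXC had 2 added of 4 and 1 missing of 3. That missing HOXC peak, chr12:54399686-54400005, had fold 8.10 and a pileup of 56, the highest fold of the siNC peaks in the HOXC window, and was in no other knockdown list.

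The clustered protocadherins on chromosome 5, cell-surface genes whose promoters are chosen with the help of CTCF, had 3 added of 29 siCHD5 peaks (10.3%) and 12 missing of 37 siNC peaks (32.4%, interval 18.0 to 49.8). Missing peaks were spread along the array. The siCHD5 list had its first peak at chr5:140201723-140201992, with fold 12.5, while siNC also had chr5:140165585-140165775 and chr5:140180534-140180745, both missing. Between chr5:140213623-140213890 and chr5:140221274-140221524, 3 neighbouring siNC peaks were missing. The last of these, at fold 7.83 and a pileup of 30, had the highest fold of the missing peaks in the array. Median pileup was 27 in missing and 39 in kept siNC peaks. At the far end of the array, chr5:140943655-140944165 was kept, with fold 9.68 and a pileup of 112 in siCHD5, and fold 9.22 and a pileup of 172 in siNC.

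At imprinted loci, CTCF can bind by parental allele. The H19 and IGF2 window, in which CTCF insulates IGF2 from shared enhancers, had 2 added of 9 siCHD5 peaks and 4 missing of 11 siNC peaks. The wide peak chr11:2172617-2173490 was kept, at fold 9.19 in siCHD5 and 6.30 in siNC, while chr11:1970222-1970511 was missing at fold 7.03, against the highest siNC fold of the window, 7.13, at a kept peak. KCNQ1 had 2 added of 6 and 3 missing of 7. The siNC peak of highest fold in that window, chr11:2418071-2418437 (fold 8.26, pileup 63), was missing, and 3 of the 4 other lists called it. The DLK1 and MEG3 window had 1 added of 6 and none missing of 5, GNAS 1 added of 4 and none missing of 3, and the single SNRPN peak was kept in both lists, with a pileup of 138 in siCHD5 and 448 in siNC.

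At CHD5 itself, on chromosome 1, all 4 siCHD5 peaks were kept and 3 of 7 siNC peaks were missing. The missing peaks were chr1:6142445-6142660 (pileup 16), chr1:6284050-6284326 (17) and chr1:6298784-6299015 (39). Kept siNC peaks there had pileups of 63, 52, 70 and 26, so the groups overlapped.

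The remaining windows differed in which share stood apart. In the MHC, the immune gene region, 16 of 76 siCHD5 peaks were added (21.1%, interval 12.5 to 31.9) and 15 of 74 siNC peaks were missing (20.3%), so the added share was above 9.41% and the missing share near 21.5%. The added MHC peaks had pileups of 13 to 27 and folds of 4.74 to 9.48. The major histone cluster had 3 added of 36 and 8 missing of 41, SOX9 5 of 19 (26.3%, interval 9.15 to 51.2) and 2 of 16 (12.5%), SHH 1 of 7 and 2 of 8, and alpha globin 1 of 6 and 1 of 6. The single beta globin peak was kept. Over all 19 windows 51 of 290 siCHD5 peaks were added (17.6%, interval 13.4 to 22.5) and 70 of 308 siNC peaks were missing (22.7%, interval 18.2 to 27.8). Of the 51 added peaks, 16 lay in the MHC and 13 in DXZ4, so the added share does not describe the windows in general.

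By chromosome, added shares ran from 7.06% on chromosome 12 to 11.3% on chromosome 4. Missing shares ran from 18.7% on chromosome 15 to 25.2% on chromosome 19 (interval 22.8 to 27.7), with 24.4% on chromosome 16. Intervals included the share over all peaks except for added peaks on chromosomes 4 and 12 and for missing peaks on chromosomes 15, 16 and 19.

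**Figure D4:**
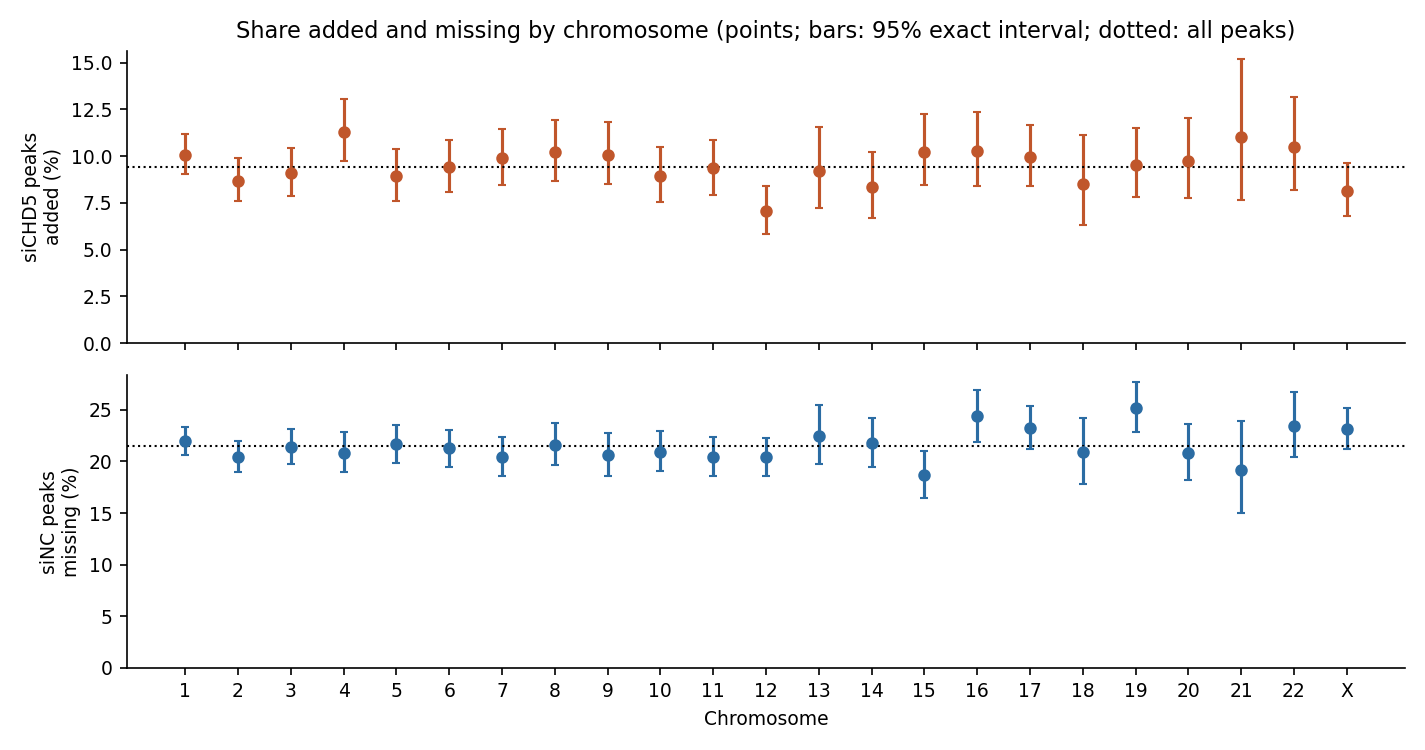
Percent of siCHD5 peaks added (upper panel) and of siNC peaks missing (lower panel) on each chromosome; points are shares, error bars 95% exact intervals for counting error, and the dotted lines the shares over all peaks. Added shares lie between 7.06% and 11.3%, and missing shares between 18.7% and 25.2%.

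The first 2 Mb of the chromosomes stood higher in both lists. There, 70 of 427 siCHD5 peaks were added (16.4%, against 9.32% farther in) and 152 of 509 siNC peaks were missing (29.9%, against 21.4%). Chromosome 16 had 20 of 38 siNC peaks missing in this stretch, and without it the missing share was 28.0%. On chromosome 1, 14 of 41 siCHD5 peaks were added there. Pileup was lower in the first 2 Mb, with medians of 36 and 46 for siCHD5 peaks inside and past 2 Mb, and 45 and 60 for siNC peaks. The far ends of the chromosomes were not examined apart and counted as past 2 Mb. In the 20% of siNC peaks with the lowest pileup, 68.8% were missing in the first 2 Mb and 72.0% past it. The next 20% gave 30.5% and 27.5%, and the middle 20% gave 14.7% and 6.33%. In the fourth 20%, 0 of 81 and 95 of 7173 were missing, and in the highest, 2 of 64 and 0.348%.

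In stretches of 1 Mb, the calls were scattered. Of 2856 stretches with a siCHD5 peak, 1676 had an added one (58.7%), and of 2865 with a siNC peak, 2448 had a missing one (85.4%). Among stretches with at least 15 peaks, the highest added share was on chromosome 1 from 148 to 149 Mb (13 of 20). Next came chromosome 8 from 86 to 87 Mb (28 of 44), chromosome 4 from 9 to 10 Mb (13 of 22) and chromosome 7 from 61 to 62 Mb (11 of 20). The highest missing share was on chromosome 3 from 44 to 45 Mb (9 of 15). Next came chromosome 1 from 148 to 149 Mb (9 of 16) and chromosome 8 from 86 to 87 Mb (19 of 35). Thus 2 stretches, on chromosomes 1 and 8, led in both directions. At the other extreme, chromosome 12 from 56 to 57 Mb and chromosome 19 from 47 to 48 Mb each had 38 siCHD5 peaks and none added. Chromosome 2 from 92 to 93 Mb had 30 siNC peaks and none missing, and chromosome 9 from 80 to 81 Mb had 20.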

How the data were processed

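Each condition had 1 deposited narrow-peak file, 6 in all, named for its 3 replicates together. Per the submitters' processing notes, the build was hg19 and the tools included MACS2 2.1.2, Bowtie2 2.3.4, bedtools 2.25.0 and SAMtools 1.9, with settings not given in the sources used here. Deposited columns used were the authors' fold enrichment (a linear ratio), −log10 p, −log10 q and the summit. The deposited display score was not used. Folds are the authors' own and rank peaks within a list.

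Lines sharing chromosome, start and end entered once, under their summit of largest fold. Pileup and background were solved from fold, taken as pileup plus 1 over background plus 1, and a Poisson p. For 100% of peaks in both lists, a whole-number pileup gave the deposited p to within 0.01%. Read totals were not used here. Coordinates are hg19, counted from 1.

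Overlap, spacing, runs and the pileup solution were checked on simulated data. Python 3.11.15, numpy 2.4.6, scipy 1.17.1, pandas 2.3.3 and matplotlib 3.10.9 were used. Regions named were the 10 strongest added and missing peaks with no partner within 1 kb, the 5 strongest siNC peaks, the 5 widest and the longest runs; the leading ones are printed. Stretches of 1 Mb needed 15 peaks. Chromosome 8 from 86 to 87 Mb and the 0.5 kb and 500 bp classes were singled out with values seen. The members, loci and classes were chosen with earlier results of these data known. Alternatives were other overlap rules, q thresholds, equal list lengths, all contigs and a width limit. No hg19 sequence or gene annotation was used here, so no gene or sequence was assigned to a peak.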

Additional observations from a re-analysis of the deposited data

Results flagged for a closer look

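Outside chromosomes 1 to 22 and X, 1 contig was flagged. On the chromosome 9 contig gl000199, siCHD5 had 91 peaks and siNC 72, and the siCHD5 number lay just above the upper 95% exact Poisson limit of the siNC number, 90.7. Of these, 21 siCHD5 peaks were added and no siNC peak was missing. The median fold of the siCHD5 peaks there was 2.56 and the highest 4.18. It was 1 of 12 contigs with at least 10 siCHD5 peaks that were compared in this way. The limit covers counting error of the siNC number only and not that of the siCHD5 number, so no difference is concluded from it.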

How the results depend on the processing

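With 1 list per condition, depth, enrichment and threshold all bear on whether a peak was called, and intervals cover counting error only. The added share was 11.1% with 50% reciprocal overlap, 10.6% with summits within 100 bp, 8.97% with any peak within 1 kb, 8.04% and 8.20% at a −log10 q limit of 5 and 10 on both lists, 3.54% with the limit of 10 on the counted list only, 13.1% with equal lengths and 9.85% without peaks over 1 kb. The missing share was 22.9%, 22.5%, 20.5%, 18.7%, 18.2%, 9.38% and 13.2% under the same settings up to equal lengths. All contigs and leaving out chromosome 8 from 86 to 87 Mb moved neither beyond its interval. Of 80 further values, 55 stayed within 1.5 times, 22 moved more and 3 reversed. Missing share in the sparsest minus the densest 20% of siNC peaks, -3.06 points, became 0.96 with the limit of 10 on both lists. The share of added peaks within 10 kb of a siNC peak minus that of kept ones, -1.38 points, became 0.39 with 50% reciprocal overlap and 1.14 with summits within 100 bp; the cause was not tested. The excess missing share of siNC peaks over 500 bp, 7.41 points, lay between 5.70 and 27.6 over the alternatives. Missing share in the weakest minus the strongest 10% of siNC peaks by fold was 50.8 points. It fell to 24.1 and 7.15 points with limits of 5 and 10 on both lists. With the limit of 10 on the counted list only it was 5.29 points, and with equal lengths 12.9. No paired analysis was possible because the authors pooled the replicates before calling, and leaving out replicates was not possible either.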
